A study of Mus musculus with 2 samples.

Results

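The 40 genes described here drive or mark cell division, and they were chosen as a fixed list of symbols, 40 of the 32285 genes in the deposited matrices. The list was split by role into 10 S phase genes (Mcm2 to Mcm7, Pcna, Tyms, Rrm1 and Rrm2), 24 genes of G2 and mitosis, and 6 others (Ccne1, Ccne2, Pclaf, Stmn1, Tubb5 and Hmgb2). All 40 symbols were found, each once. The study profiled the immune infiltrate of mouse prostate cancer by droplet single-cell RNA sequencing, in 1 library of tumour tissue and 1 library of normal prostate tissue taken next to the tumour. Both tissues were dissociated with collagenase and trypsin, and sorted leukocytes (CD45+) and CD45- cells, the latter labelled epithelial, were loaded together. Strain, genotype, age and the number of animals were not given in the sources used here. With 1 library for each tissue, no difference between tumour and adjacent tissue has a replicate check, and every interval below is a 95% interval that covers counting error only. Such an interval treats each transcript as independent, whereas most transcripts of these genes lay in a small number of cells.

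Cells copy their DNA in S phase and divide it in mitosis, and both steps are served by transcripts that cells make mainly around those phases. The Mcm proteins form the ring-shaped helicase that opens DNA, Pcna is the sliding clamp of the polymerases, and Tyms, Rrm1 and Rrm2 make the DNA building blocks. Cyclins A and B with Cdk1 start mitosis, kinesins, centromere proteins and Aurora kinases move the chromosomes, and Ube2c and Cdc20 act in the ubiquitin ligase that ends it. Genes of S phase are classic targets of the E2F factors, while many mitotic genes are held down in resting cells by the DREAM complex, which binds CHR elements, and depend on CCAAT boxes bound by NF-Y.

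The stretches before the transcription start are shown for 7 members whose values the results turn on. Mcm6 and Pcna stand for S phase, Ccnb2, Ube2c and Cdc20 are the cyclin, ubiquitin-conjugating enzyme and ligase activator that stood high in CD8 T cells of the tumour library, and Cenpa and Cks2 are the mitotic members that were also high in cells with few other mitotic transcripts. Each line gives the last 120 bases before the start, 5′ to 3′ on the gene's strand, from RefSeq on build GRCm38.p6. Capitals mark matches on either strand to CCAAT, to the CHR letters TTTGAA or TTCGAA, or to the E2F letters TTTCGCGC, TTTGGCGC, TTTCCCGC or TTTGCCGC; overlapping matches run together.
Mcm6 (chr1:128359706-128359825, minus strand): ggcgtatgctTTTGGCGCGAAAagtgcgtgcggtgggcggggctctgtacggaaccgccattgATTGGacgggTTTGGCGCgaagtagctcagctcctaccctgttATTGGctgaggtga
Pcna (chr2:132253181-132253300, minus strand): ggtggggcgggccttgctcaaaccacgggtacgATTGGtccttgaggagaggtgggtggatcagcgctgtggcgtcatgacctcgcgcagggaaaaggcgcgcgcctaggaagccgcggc
Ccnb2 (chr9:70421555-70421674, minus strand): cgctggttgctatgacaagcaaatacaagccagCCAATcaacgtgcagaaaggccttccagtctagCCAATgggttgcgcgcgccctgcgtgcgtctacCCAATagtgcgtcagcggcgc
Ube2c (chr2:164769809-164769928, plus strand): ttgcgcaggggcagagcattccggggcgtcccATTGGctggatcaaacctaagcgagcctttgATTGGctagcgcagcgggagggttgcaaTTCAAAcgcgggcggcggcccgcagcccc
Cenpa (chr5:30666766-30666885, plus strand): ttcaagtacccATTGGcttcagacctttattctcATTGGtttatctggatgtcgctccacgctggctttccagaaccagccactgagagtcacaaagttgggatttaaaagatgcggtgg
Cks2 (chr13:51645112-51645231, plus strand): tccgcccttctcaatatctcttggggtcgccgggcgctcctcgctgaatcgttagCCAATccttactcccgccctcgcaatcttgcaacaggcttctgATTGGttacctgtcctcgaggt
Cdc20 (chr4:118437344-118437463, minus strand): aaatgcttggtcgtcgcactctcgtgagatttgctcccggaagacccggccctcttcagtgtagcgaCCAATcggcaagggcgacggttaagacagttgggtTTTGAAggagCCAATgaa

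Of the 40 members, 34 had a promoter window in the RefSeq set used here (not Mcm4, Ccna2, Spc24, Aurkb, Ccne2 and Stmn1). The 250 bases before the start were searched. A CCAAT box was found in 30 of 34 members (88.2%), against 37.5% of 27025 genes, and at least 2 boxes in 23 of 34 (67.6%) against 11.5%. In Ccnb2, 3 boxes began 87, 54 and 21 bases before the start. The CHR letters were found in 9 of 21 mitotic genes (42.9%) and 2 of 9 S phase genes, against 19.6% of all genes. One of them lay 18 bases before the start of Cdc20. The E2F letters were found in Mcm5, Mcm6, Mcm7 and Cdk1, 4 of 34 members, against 2.16% of all genes. Pcna, Cenpa and Cks2 each held a CCAAT box and none of the CHR or E2F letters in this window. A match is a string of letters and not a measured site.

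After removal of droplets with under 200 genes or over 20% mitochondrial UMIs (unique molecular identifiers, each standing for 1 captured transcript), 6209 cells remained in the adjacent library and 7768 in the tumour library, with medians of 6383 and 6654.5 UMIs. Marker genes placed 3377 (54.4%) and 4288 (55.2%) of them in 17 gated types. A further 584 (9.41%) and 774 (9.96%) carried markers of 2 lineages and were kept apart, and 2248 and 2706 passed no gate. The leading genes of the gates fitted their names (C1qa, C1qb and C1qc in macrophages, Xcr1 and Clec9a in type 1 conventional dendritic cells, cDC1), with exceptions. The cells with Cd3d, Cd3e or Cd3g transcripts outside the T cell subset gates were led by 4 haemoglobin genes, the NK receptor genes Klra1, Klra7, Klra5 and Klra9, Cd7 and the granzyme Gzmc, so they are called other CD3+ cells here and given no cell type name. The remaining epithelial cells were led by the secretory genes Sbp and Spink1, and Prss2, a trypsinogen, was among the leading genes of CD8 T cells. The CD4 T cell gate asked for a UMI of Cd4 or Cd40lg, so its cells need not hold Cd4. It was led by Cd40lg, Tnfsf11, Icos and Il17a, ahead of Cd4. Of the barcodes kept, 16 occurred in both libraries. Where a pair of values follows, the adjacent library comes first and the tumour library second. Levels are CPM, the UMIs of a gene or list scaled to a total of 1000000 UMIs of the cells they were summed over. In other CD3+ cells the 8 T lineage markers summed to 5866 and 5733 CPM and the 8 NK markers to 1787 and 1254 CPM.

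All 40 members were higher in one small set of cells, but by very different amounts. Cells with at least 5 UMIs of the mitotic genes other than Cenpa, Cks2 and the gene in question were set against all other gated cells. Birc5 (survivin, of the chromosomal passenger complex) stood at 126 against 1.5 CPM in the adjacent library and at 139 against 1.87 CPM in the tumour library, which is 84.2-fold (60.6 to 120) and 73.9-fold (56.7 to 98.3). Those cells held 94% and 95.2% of all Birc5 UMIs while holding 15.7% and 21.2% of all UMIs. For other members the share of UMIs in such cells was far smaller, at 32.6% and 52.7% for Aurka, 34.8% and 45.4% for Mcm6 and 19.5% and 27.4% for Cks2. The DNA clamp partner Pclaf was 91.2-fold and 58.5-fold higher there, Ccna2 61.0-fold and 93.4-fold, Ube2c 56.4-fold and 42.2-fold, and the proliferation antigen Mki67 18.7-fold and 17.6-fold. Among S phase genes Rrm2 led with 15.7-fold and 21.1-fold, Tyms gave 7.72-fold and 8.35-fold, and the 6 Mcm genes lay between 2.82-fold and 7.34-fold.

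Cks2, Cenpa and Pcna had the smallest folds of the 40 in both libraries. Cks2, a small subunit of cyclin-dependent kinases, was at 127 against 99.3 CPM and at 140 against 101 CPM, 1.28-fold (1.17 to 1.39) and 1.39-fold (1.3 to 1.48). The centromeric histone Cenpa was 1.57-fold and 1.8-fold higher, and Pcna 1.68-fold and 1.88-fold. The other 37 members were at least 2.3-fold higher in each library, with Ccne2 in the tumour library the lowest. The mitotic list is also given without Cenpa and Cks2, and the S phase list of some types without Pcna. These are called the narrow lists (22 mitotic and 9 S phase genes), and leaving out the 3 genes was a choice made after values were seen. The folds above do not test that choice, because their call of cells already left out Cenpa and Cks2.

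**Figure D1:**
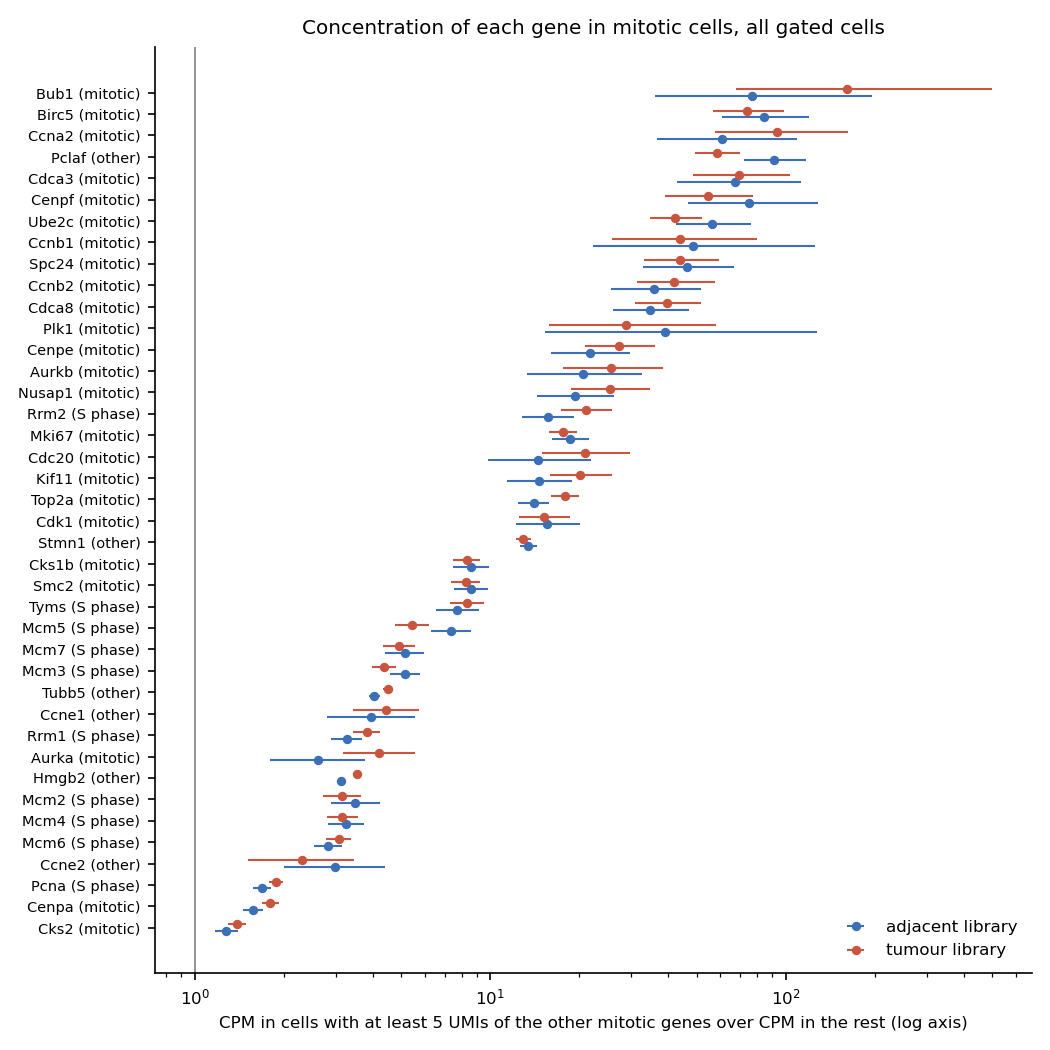
Fold (log axis) of each of the 40 members in gated cells with at least 5 UMIs of the other narrow mitotic genes over all other gated cells, with 95% counting intervals, 1 point for each library. Birc5, Bub1 and Pclaf lie far to the right (84.2-fold and 73.9-fold for Birc5), while Cks2, Cenpa and Pcna lie between 1.28-fold and 1.88-fold.

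The full S phase list, Pcna included, was highest in the CD3+ and NK gates and lowest in the stroma, epithelium and neutrophils. CD8 T cells held 616 CPM (590 to 643) and 870 CPM (836 to 904), the highest of the 17 types in both libraries. Next came gamma delta T cells with 537 and 557 CPM, other CD3+ cells with 544 and 534, NK cells with 474 and 621, and CD4 T cells with 472 and 651. C1q macrophages (432 and 449 CPM), cDC1 (420 and 453) and type 2 conventional dendritic cells (cDC2, 432 and 450) lay close together, with overlapping intervals within each library. Basal cells had 200 and 237 CPM, fibroblasts 148 and 164, and neutrophils 183 and 176. Part of this order rested on Pcna. Without it, NK cells had 249 and 357 CPM, in the adjacent library below C1q macrophages (284 and 286) and cDC2 (289 and 292). CD8 T cells had 427 and 607 CPM, gamma delta T cells 345 and 360, other CD3+ cells 362 and 344, and CD4 T cells 303 and 471. Neutrophils fell to 52.1 and 27.7 CPM.

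Single S phase genes followed the order of the full list with exceptions. Mcm3, Mcm7, Tyms and Rrm2 were highest in CD8 T cells in both libraries among the types with at least 50 cells in each: Tyms stood at 34.5 and 72.9 CPM there, against 2.2 and 0.909 in neutrophils. Mcm6 was about as high in NK cells (96.3 and 106 CPM) as in CD8 T cells (98.1 and 106 CPM). Rrm1, the large subunit of ribonucleotide reductase, was highest in gamma delta T cells of the adjacent library (84.2 CPM) and in CD4 T cells of the tumour library (101 CPM). Pcna was highest in NK cells with 225 and 264 CPM, although CD8 T cells were about as high in the tumour library. NK cells with at least 5 narrow mitotic UMIs numbered 3 of 228 and 8 of 165.

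**Figure D2:**
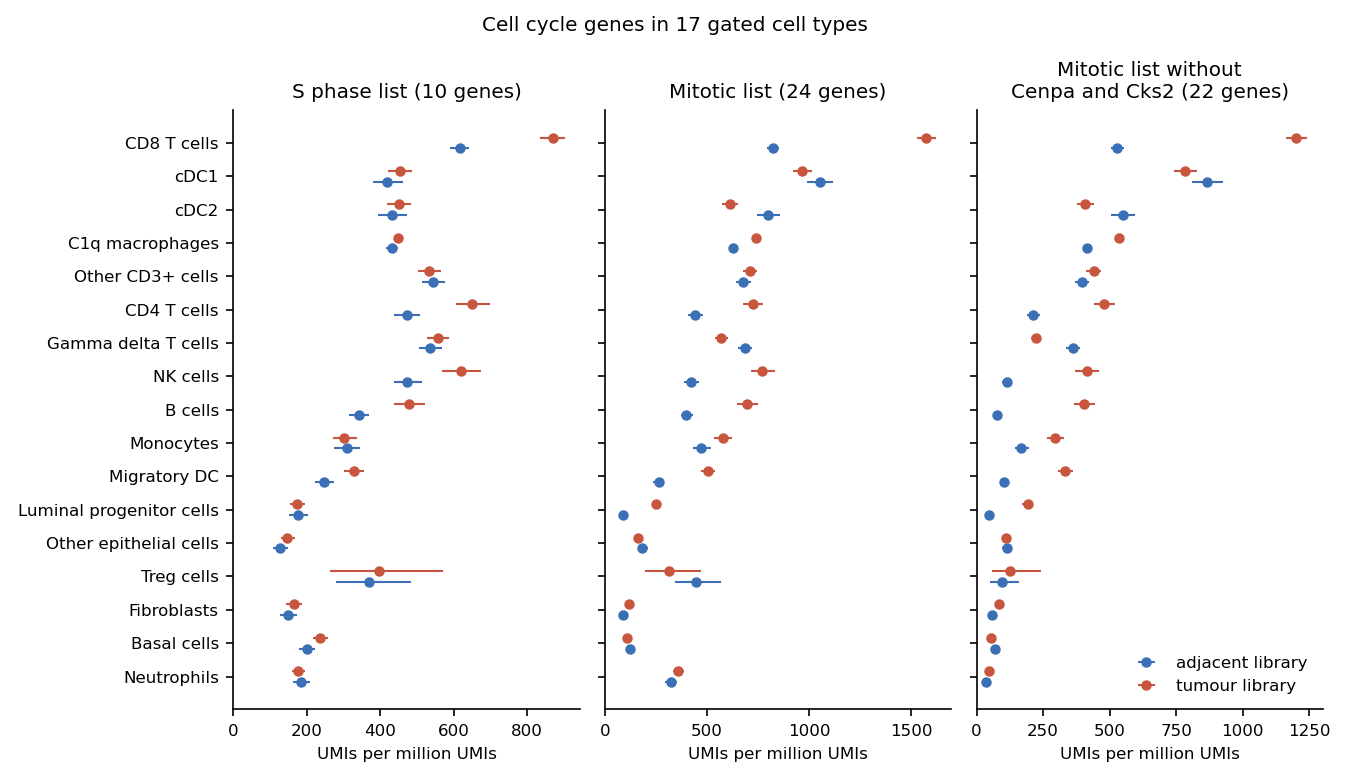
CPM of the S phase list (10 genes), the mitotic list (24 genes) and the mitotic list without Cenpa and Cks2 (22 genes) in 17 gated cell types, 1 point for each library, with 95% Poisson intervals. CD8 T cells of the tumour library are the highest point of the mitotic panels (1572 and 1201 CPM), and neutrophils fall to 36 and 45 CPM once Cenpa and Cks2 are left out.

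The mitotic list ordered the types differently. In the adjacent library cDC1 were highest with 1052 CPM (989 to 1119) from 49 cells, followed by CD8 T cells with 823 (793 to 853) and cDC2 with 799 (746 to 855). In the tumour library CD8 T cells were highest with 1572 CPM (1527 to 1618), ahead of cDC1 with 965 (918 to 1013) from 92 cells. C1q macrophages had 629 and 741 CPM. Basal cells (124 and 109 CPM) and fibroblasts (89.7 and 117) were at the low end in both libraries, while luminal progenitor cells had 89.1 and 252. The cDC1 rested on few cells: the 3 with the most UMIs held 49.1% and 34.4% of the list. The 26 and 18 regulatory T cells had 445 and 311 CPM from 66 and 22 UMIs.

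**Figure D3:**
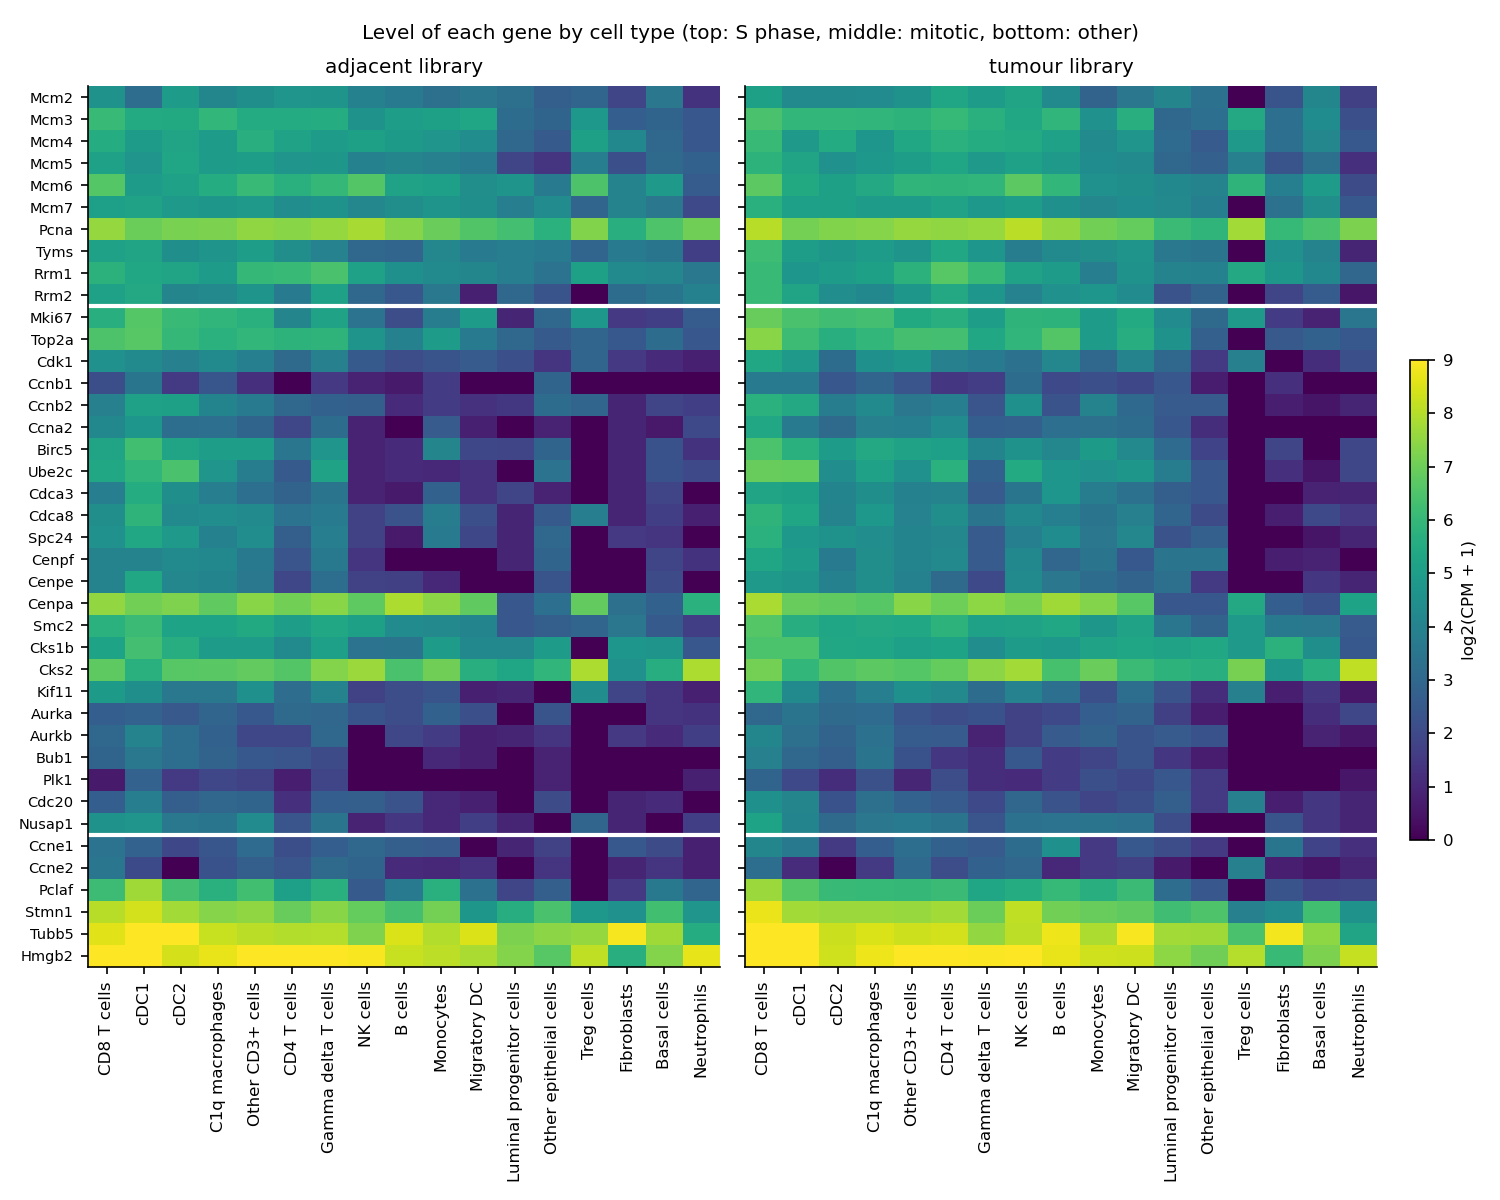
Level of each of the 40 members (log2 of CPM plus 1) in 17 cell types, 1 panel for each library, with members ordered by role. Most mitotic rows are brightest in CD8 T cells, conventional dendritic cells and C1q macrophages, whereas the Cks2 row is brightest in neutrophils (235 and 278 CPM) and the Cenpa row is bright in B cells (237 and 207 CPM).

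Neutrophils, which leave the bone marrow as cells that no longer divide, show what the 3 broad genes do to a summed list. Their mitotic list stood at 323 and 359 CPM, and 23 of 433 cells (5.31%) and 37 of 838 cells (4.42%) had at least 5 UMIs of it. Cks2 gave 235 and 278 CPM of that, the highest level of this gene in any gated type of either library with at least 50 cells. Without Cenpa and Cks2 the list fell to 36.0 and 45.0 CPM, and 0 of 433 and 0 of 838 cells reached 5 UMIs. With the limit for a count of 0 set at 3 cells of the total, this allows shares of up to 0.693% and 0.358%. These cells were shallow, with medians of 2882 and 2271.5 UMIs. NK cells went from 422 and 771 CPM to 114 and 413, B cells from 399 and 695 to 76.8 and 405, and CD8 T cells from 823 and 1572 to 529 and 1201.

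Over types and libraries (34 points, summed CPM on a log2 scale with 10 added), the members' correlation with the narrow mitotic list ran from 0.95 for Birc5, 0.94 for Spc24 and 0.93 for Mki67 to 0.54 for Pcna, 0.40 for Ccne2 and 0.14 for Cks2. Points share their library and differ in depth and cell number, and a mitotic member is part of the list it is set against. Outside the members, Racgap1, a regulator of the cleavage furrow, followed the full mitotic list best (r = 0.90, and 0.85 with the narrow list). The next 9 genes were Fermt3, Was, Arhgap30, AI662270, Arhgap9, Gng2, Parvg, Cd48 and Dock8 (r from 0.86 to 0.89), several of them genes of leukocyte adhesion and cytoskeleton. Their r with the narrow list was lower, from 0.57 to 0.70.

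Of the other members, the E-type cyclins, which take cells from G1 into S phase, were sparse: in CD8 T cells Ccne1 had 34 and 49 UMIs and Ccne2 36 and 25. The chromatin protein Hmgb2 was highest in CD8 T cells, at 771 and 1068 CPM, and lowest in fibroblasts, at 48.9 and 67.5. The tubulin gene Tubb5 was high in cell types with few mitotic UMIs as well: fibroblasts had 469 and 463 CPM, against 387 and 668 in CD8 T cells. Stmn1, which destabilises microtubules, was concentrated in the cells with at least 5 narrow mitotic UMIs, by 17.3-fold and 31.2-fold within CD8 T cells and 9.51-fold and 9.54-fold within C1q macrophages.

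Counted as cells, 617 of 6209 (9.94%) and 859 of 7768 (11.1%) had at least 5 UMIs of the narrow mitotic list. Of these, 470 (76.2%) and 632 (73.6%) also had at least 5 UMIs of the narrow S phase list. C1q macrophages gave 66 and 152 of them (10.7% and 17.7%) and CD8 T cells 38 and 53 (6.16% and 6.17%). Cells that passed no gate gave 262 and 371 (42.5% and 43.2%), and cells with markers of 2 lineages 153 and 149 (24.8% and 17.3%). These shares also follow the number of cells of a type, which was 501 and 819 for C1q macrophages and 389 and 357 for CD8 T cells. Within the types, 13.2% and 18.6% of C1q macrophages and 9.77% and 14.8% of CD8 T cells had at least 5 narrow mitotic UMIs. The cells with markers of 2 lineages were deep, with medians of 22506.5 and 15672.5 UMIs, and 26.2% and 19.3% of them reached 5 UMIs. After each cell was thinned to 2000 UMIs the shares were 1.78% and 2.65%, against 3.43% and 7.89% in CD8 T cells. Depth moved with the call in the gated types as well: C1q macrophages with at least 5 UMIs had medians of 22553 and 22119 UMIs, against 9433 and 10086 in the rest.

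**Figure D4:**
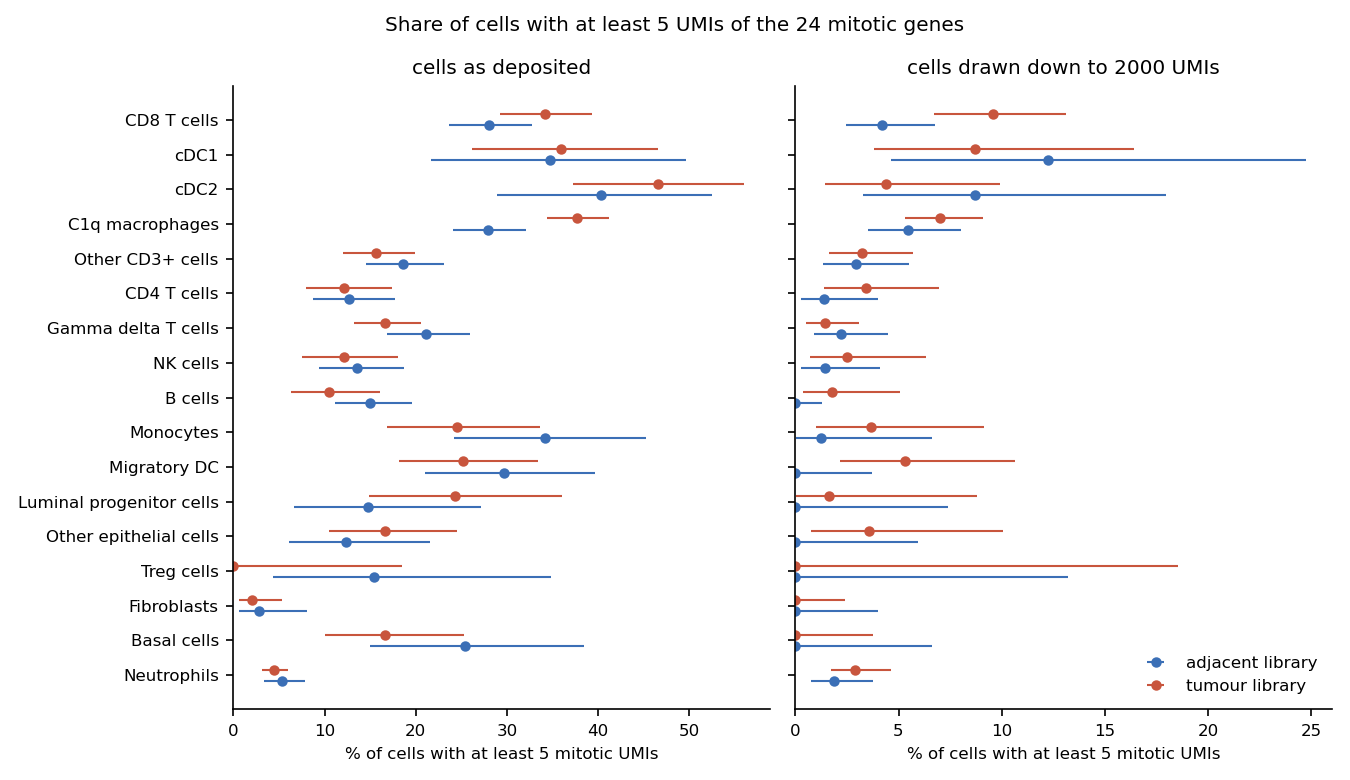
Share of cells (percent) with at least 5 UMIs of the mitotic list in each type and library, as deposited and after each cell was thinned to 2000 UMIs, with exact binomial 95% intervals. CD8 T cells stand at 28.0% and 34.2% as deposited and at 4.22% and 9.58% after thinning, so the height of a share depends on depth.

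Between the libraries, 39 of the 40 members were higher in CD8 T cells of the tumour library. Their mitotic list was at 823 CPM in the adjacent and 1572 CPM in the tumour library, 1.91-fold higher (1.82 to 2), and the narrow list was 2.27-fold higher (2.14 to 2.4). All 24 mitotic genes were higher in the tumour library and 21 of them by at least 1.5-fold, where 7.75% of the 9670 genes with at least 20 UMIs were that much higher and 5.9% that much lower. The median log2 difference was 1.25 over the 24 genes and 0.01 over all genes. Ccnb2 went from 14.2 to 52.2 CPM, 3.67-fold (2.64 to 5.17), Cdc20 from 5.52 to 21.7 CPM, 3.93-fold (2.33 to 6.95), and Ube2c from 40.9 to 119 CPM, 2.91-fold (2.39 to 3.57). Mki67 went from 50.8 to 120 CPM, 2.36-fold (1.97 to 2.85), and Top2a from 89.4 to 168, 1.88-fold. Plk1, the Polo kinase, had only 2 and 19 UMIs, a ratio of 11.1 (2.68 to 98.2). The 3 mitotic genes under 1.5-fold were Cenpa (1.26), Cks2 (1.28) and Aurka, whose 19 and 21 UMIs gave 1.29 (0.66 to 2.54).

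The S phase genes of CD8 T cells were also higher, by less. The list was 1.41-fold higher (1.33 to 1.49), all 10 genes pointed the same way, and 4 passed 1.5-fold: Tyms (2.11), Rrm2 (1.96), Mcm7 (1.6) and Mcm5 (1.59). Mcm6 hardly differed, at 98.1 and 106 CPM, 1.08-fold (0.924 to 1.26), and Pcna went from 189 to 263 CPM, 1.39-fold. Pclaf went from 71.7 to 200 CPM, 2.79-fold (2.4 to 3.25). The only member that was lower was Ccne2, at 0.811-fold (0.467 to 1.39).

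The share of CD8 T cells with at least 5 narrow mitotic UMIs was higher in the tumour library, and so was the list summed over those cells. At least 5 narrow mitotic UMIs were found in 38 of 389 cells (9.77%) and in 53 of 357 cells (14.8%), a difference of 5.08 percentage points (0.362 to 9.88). Summed over those cells the narrow list stood at 2094 and 3890 CPM, and the 3 richest cells held 27.3% and 17% of its UMIs in the type. The 38 and 53 cells were picked by a fixed number of UMIs of this same list. Its level in them therefore depends on their depth, and the difference in level was not tested. They held 20.9% and 28.6% of all UMIs of the type. For the full mitotic list the shares were 28.0% and 34.2%, a difference of 6.15 percentage points whose interval includes 0 (-0.486 to 12.8). At 2000 UMIs for each cell, with 10 and 2 shallower cells left out, they were 4.22% and 9.58%, a difference of 5.36 points (1.7 to 9.21). Median depth was 6742 and 6284 UMIs. Other cell types' markers also differed between these CD8 T cells: the 8 NK markers summed to 1879 and 639 CPM, all 8 detected in both. The 8 gamma delta markers summed to 204 and 461 CPM, with Trdv4 at 0 in the tumour library. Trdc was at 0 in both because the gate left out every cell with a Trdc UMI. The 8 C1q macrophage markers stood at 1057 and 1091 CPM. The part of these markers in the result was not tested.

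**Figure D5:**
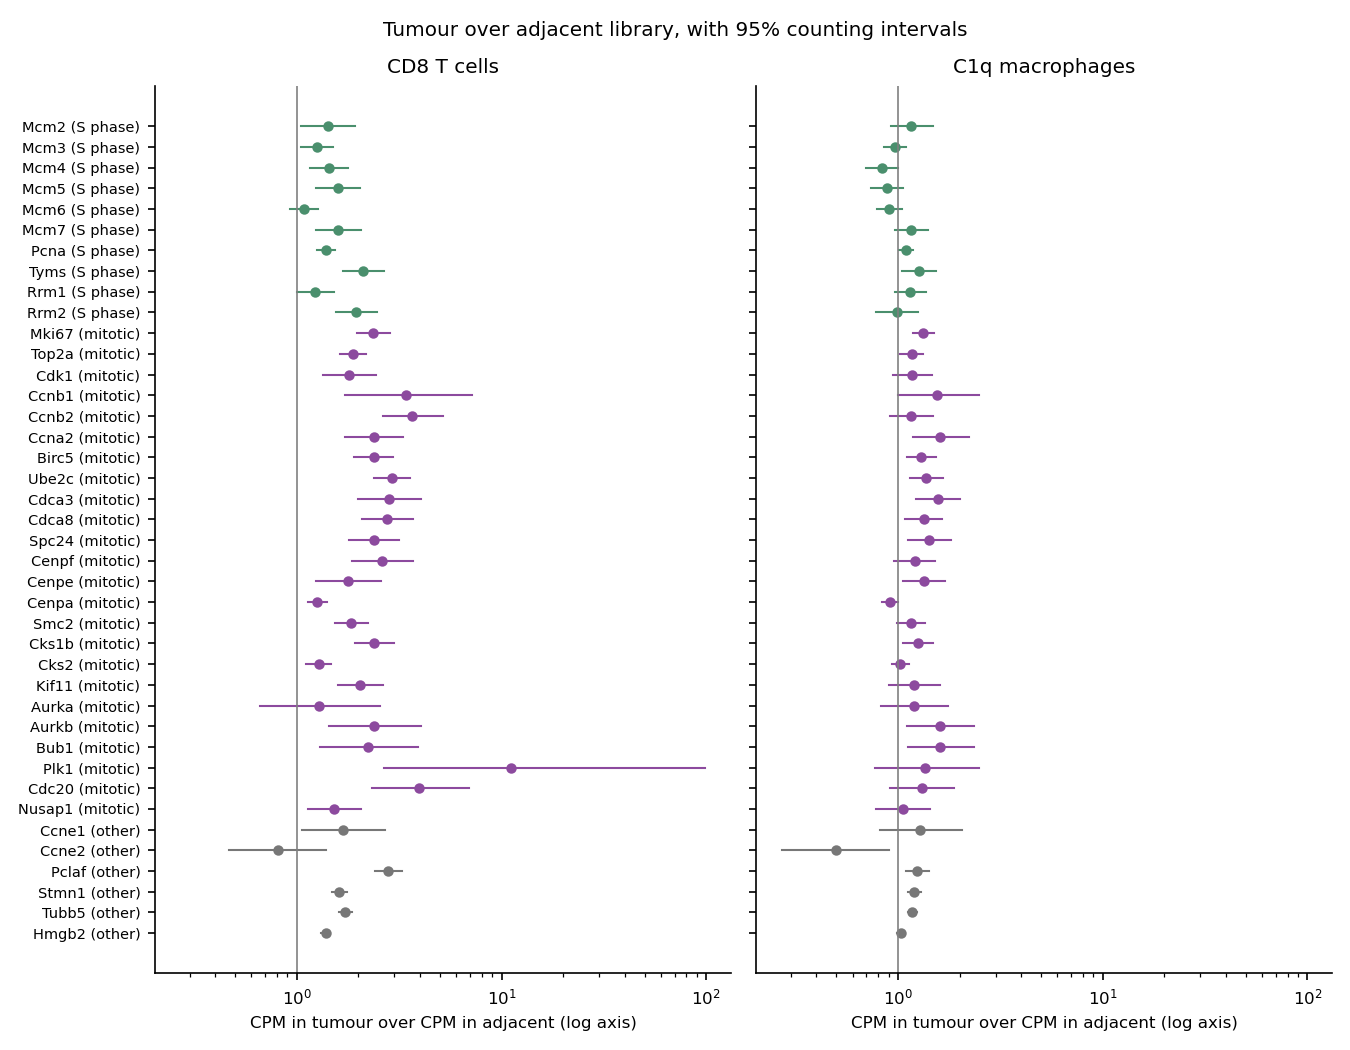
Tumour over adjacent fold (log axis) of each member in CD8 T cells and C1q macrophages, with 95% intervals from the UMI counts, 1 library for each tissue. In CD8 T cells 39 of 40 members lie right of 1, with Cdc20 at 3.93 and Ccnb2 at 3.67, while in C1q macrophages most mitotic genes lie between 1.03 and 1.61 and S phase genes on both sides of 1.

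In C1q macrophages the difference between the libraries was small. The mitotic list was at 629 and 741 CPM, 1.18-fold higher in the tumour library (1.14 to 1.22), and the narrow list was 1.29-fold higher. Of the 24 genes 23 were higher, 5 of them by at least 1.5-fold (Ccna2, Bub1, Aurkb, Cdca3 and Ccnb1, from 1.56 to 1.61), against a background of 5.06% of genes that much higher and 3.99% that much lower. Mki67 went from 59.6 to 79.3 CPM, 1.33-fold (1.18 to 1.5), and Ube2c was 1.38-fold higher. Cenpa was the exception, at 0.913-fold (0.833 to 1). The S phase list did not differ beyond counting error, 1.04-fold (0.991 to 1.09), with 5 genes higher and 5 lower and none past 1.5-fold. That value depended on the processing: the S phase log2 difference was 0.053 as summed, 0.23 (0.033 to 0.44) after thinning to 2000 UMIs, 0.26 as a mean over cells and 0.21 (0.12 to 0.30) with stricter gates, where the mitotic log2 difference was 0.11 (0.044 to 0.18). Whether the S phase and mitotic lists differ from each other was not tested. The share of macrophages with at least 5 S phase UMIs was 25.1% and 37.2% as deposited, but 1.82% and 2.08% at 2000 UMIs, a difference of 0.265 points (-1.64 to 1.82). Median depth was 10298 and 11246 UMIs. Summed markers of T cells (297 and 286 CPM) and of neutrophils (646 and 764 CPM) were low beside the C1q markers (38318 and 38232 CPM). The gate itself required C1q transcripts and left out cells above a limit of Cd3 or neutrophil transcripts. These sums therefore do not test how pure the type was.

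In CD4 T cells the summed mitotic list was 1.63-fold higher in the tumour library and the narrow list 2.26-fold. The difference in level of the full list did not hold after thinning to 2000 UMIs, which also gives each cell the same weight. Its log2 went from 0.71 to -0.021 (-0.33 to 0.29), and the level of the narrow list was not thinned. The thinned shares of cells with at least 5 UMIs differed by 2.04 points (-1.12 to 5.64) for the full list. For the narrow list they differed by 1.06 points (-1.92 to 4.34). Only 11 of 228 and 9 of 206 cells had at least 5 narrow UMIs, and the 3 richest cells held 48.8% and 56.6% of it. Of the 16 mitotic genes with at least 20 UMIs 15 were higher and 13 by at least 1.5-fold, where 7.89% of genes were that much higher and 8.71% that much lower. Rrm2 was 3.53-fold higher (2 to 6.54) and Mki67 3.13-fold (1.91 to 5.31).

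In NK cells, B cells, migratory dendritic cells, luminal progenitor cells and monocytes the mitotic list was also higher in the tumour library, and 1 to 3 cells held much of it. In NK cells the mitotic list was 1.83-fold and the narrow list 3.62-fold higher, with 1 of 165 tumour cells holding 52.0% of the narrow UMIs. Without the 3 richest cells of each library the mitotic log2 difference of NK cells went from 0.87 to 0.040 (-0.17 to 0.24). All 9 mitotic genes with at least 20 UMIs were higher there and 6 by at least 1.5-fold, as were 6 of 10 S phase genes, where 8.41% of genes were that much higher and 9.17% that much lower. In B cells the narrow list was 5.27-fold higher, and 3 of 172 tumour cells held 80.5% of it. Without the 3 richest cells the mitotic log2 difference turned from 0.80 to -0.11 (-0.30 to 0.084). Of 11 mitotic genes 9 were at least 1.5-fold higher, against 9.3% of genes (7.21% lower): Top2a, which untangles DNA, went from 14.5 to 95.6 CPM and Mki67 from 3.34 to 55.2 CPM. Cenpa, high in B cells of both libraries, was 0.875-fold (0.738 to 1.03). In migratory dendritic cells the narrow list was 3.24-fold higher, 3 of 135 tumour cells held 55.6% of it, and 9 of 11 mitotic genes were at least 1.5-fold higher, against 8.8% of genes (6.88% lower). The mitotic log2 difference of migratory dendritic cells, 0.94, kept its sign under 11 of 11 other choices of processing (0.47 to 1.69). Leaving out the 3 richest cells was among these choices. Their share with at least 5 mitotic UMIs differed by -4.52 points (-16.1 to 6.78) as deposited and by 5.30 points (0.658 to 10.5) after thinning. For the narrow list the thinned shares differed by 3.79 points (-0.558 to 8.56). In luminal progenitor cells the narrow list was 4.22-fold higher, and 1 of 70 tumour cells held 67.8%. With stricter gates the mitotic log2 difference of luminal progenitor cells went from 1.498 to 0.038 (-0.45 to 0.54). In monocytes the mitotic list stood at 472 and 577 CPM, 1.22-fold higher (1.08 to 1.38), and the narrow list at 168 and 295 CPM, 1.76-fold (1.45 to 2.13), of which 3 of 85 and 3 of 110 cells held 70.2% and 70.3%. The mitotic log2 difference of monocytes was 0.29 as gated and -0.10 (-0.24 to 0.034) for gates without exclusion.

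Fibroblasts had few mitotic UMIs, 99 and 172, at 89.7 and 117 CPM, 1.31-fold higher in the tumour library (1.02 to 1.69), and the narrow list was 1.48-fold higher (1.09 to 2.03). The log2 difference of 0.39 was -0.32 (-1.43 to 0.80) for the 12 late mitotic genes. The S phase list was higher in the tumour library in B cells (1.40-fold, 1.24 to 1.58), CD4 T cells (1.38-fold, 1.24 to 1.53), migratory dendritic cells (1.33-fold, 1.16 to 1.52), NK cells (1.31-fold, 1.16 to 1.47) and basal cells (1.19-fold, 1.04 to 1.36). Without Pcna the folds were 1.66 in B cells, 1.56 in CD4 T cells and 1.37 in migratory dendritic cells. They were 1.43 in NK cells and 1.39 in basal cells. In neutrophils the full list was at 0.957-fold (0.814 to 1.13) and, without Pcna, at 0.532-fold (0.372 to 0.76). Under 10 other choices of processing the S phase log2 difference fell as low as 0.0055 in B cells (0.49 as summed). In NK cells it fell as low as 0.056 (0.39 as summed). The lowest values were 0.26 in CD4 T cells and 0.32 in migratory dendritic cells. In basal cells the S phase log2 difference of 0.25 turned to -0.48 after thinning and to -0.15 for gates without exclusion. Their share with at least 5 S phase UMIs was lower in the tumour library as deposited, at 50.8% and 34.3%. That difference was -16.5 points (-31.5 to -0.823), and 1.04 points (-5.65 to 5.67) after thinning.

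In other CD3+ cells the narrow mitotic list was 1.11-fold higher in the tumour library (1.01 to 1.22), while the full mitotic list was at 1.05-fold (0.974 to 1.13) and the S phase list at 0.98-fold (0.903 to 1.06). The 5 erythroid markers of this gate stood at 8.76 and 1617 CPM, and their part in the result was not tested. Of their 19 mitotic genes with at least 20 UMIs 10 were higher and 9 lower, 4 and 1 of them by at least 1.5-fold, against 5.74% and 6.41% of genes.

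The mitotic list was lower in the tumour library in gamma delta T cells and in cDC2, and in each a choice of gate turned the direction. In gamma delta T cells it stood at 686 and 570 CPM, 1.21-fold lower, and the narrow list at 362 and 223, 1.62-fold lower. Of 19 mitotic genes with at least 20 UMIs 17 were lower, 10 by at least 1.5-fold, where 6.38% of genes were that much lower and 7.24% that much higher. Ube2c went from 35.8 to 5.91 CPM, 6.06-fold lower (3.4 to 11.6), and Spc24, of the kinetochore, was 2.68-fold lower (1.33 to 5.75). The mitotic log2 difference of -0.27 was 0.063 (-0.014 to 0.14) for gates without exclusion, -0.083 (-0.29 to 0.13) after thinning and -0.084 (-0.20 to 0.036) without the 3 richest cells. The S phase list was at 1.04-fold (0.959 to 1.12), with Tyms 1.69-fold (1.09 to 2.68) and Mcm4 1.58-fold (1.15 to 2.18) higher. Only 14 of 327 and 12 of 420 cells had at least 5 narrow UMIs, and 3 cells held 44.8% and 36.2% of them. NK markers moved the same way in this gate, at 785 and 273 CPM, and their part in the result was not tested.

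In cDC2 the mitotic list stood at 799 and 613 CPM, 1.3-fold lower, in 72 and 116 cells. The log2 difference of -0.38 was 0.038 (-0.20 to 0.28) with stricter gates. Of 18 mitotic genes with at least 20 UMIs 16 were lower, 4 by at least 1.5-fold, where 5.39% of genes were that much lower and 12.2% that much higher. Ube2c (84.6 and 20.1 CPM, 4.21-fold lower, 2.78 to 6.51) and Ccnb2 (33.8 and 13.2 CPM, 2.56-fold lower, 1.46 to 4.62) differed most, while Mki67 was 1.14-fold higher (0.839 to 1.55). Among the other members Tubb5 was lower as well, at 542 and 307 CPM, 1.76-fold. At least 5 narrow UMIs were found in 11 and 21 cells, 15.3% and 18.1%, a difference of 2.83 points (-8.85 to 13.1). At 2000 UMIs for each cell it was 5 of 69 and 3 of 114 cells.

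Over all cells, gated or not, the mitotic list was 1.13-fold and the S phase list 1.04-fold (1.02 to 1.05) higher in the tumour library. Of the 24 mitotic genes 23 were higher, and only Ccnb1 passed 1.5-fold (1.66), against 6.6% of genes that much higher and 4.4% that much lower. In cells that passed no gate 21 of 24 were higher and none by 1.5-fold, against 6.98% of genes (4.41% lower). In cells with markers of 2 lineages 19 of 24 were higher and 1 by 1.5-fold, against 11.2% (3.33% lower).

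Genes of the cycle outside the 40 members were read in the cells with at least 5 narrow mitotic UMIs against the other cells of the same type. In CD8 T cells of the tumour library (53 against 304 cells), 35 of 36 further mitotic genes with at least 20 UMIs were at least 1.5-fold higher in those cells, as were 30 of 31 replication genes and 12 of 12 histone and chromatin genes, against 16.8% of all genes. In the adjacent library (38 against 351 cells) the counts were 28 of 30, 26 of 29 and 11 of 11, against 15.3%. The tubulin Tuba1b was 4.27-fold and 8.87-fold higher, the dUTPase Dut 2.8-fold and 5.91-fold, and the licensing inhibitor Gmnn 3.2-fold and 6.93-fold. E2f1 was 7.94-fold and 5.88-fold higher and its partner Tfdp1 3.31-fold and 3.55-fold, in a list of E2F and pocket protein genes of which 3 of 7 and 6 of 10 passed. Cdk4 was 1.8-fold and 2.14-fold higher, whereas Ccnd2, the D-type cyclin of lymphocytes, was lower, at 0.588-fold and 0.519-fold. Among genes linked to quiescence Klf2 stood at 0.701-fold and 0.515-fold and Btg1 at 0.753-fold and 0.557-fold. Of the inhibitor and quiescence list 2 of 11 and 4 of 10 genes were at least 1.5-fold lower, against 11.7% and 14.6% of all genes, and 1 of 11 and 2 of 10 were at least 1.5-fold higher, against 15.3% and 16.8%. In the adjacent library these shares lie near those of all genes.

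In C1q macrophages most further mitotic and replication genes were higher in such cells too. In the tumour library (152 against 667 cells) 41 of 42 further mitotic genes and 31 of 34 replication genes were at least 1.5-fold higher, against 13.3% of all genes; in the adjacent library (66 against 435 cells) it was 35 of 36 and 29 of 32, against 17.8%. Racgap1 was 8.11-fold and 12.4-fold higher. The D-type cyclin Ccnd1 was level, at 1.06-fold (0.926 to 1.21) and 1.03-fold (0.943 to 1.12), and Btg1 was at 0.967-fold (0.918 to 1.02) and 0.895-fold (0.863 to 0.929). Of the inhibitor and quiescence genes 2 of 11 and 5 of 12 were at least 1.5-fold higher, against 17.8% and 13.3% of all genes, and 0 of 11 and 0 of 12 were at least 1.5-fold lower, against 5.38% and 4.73%. Whether the inhibitors differ between CD8 T cells and macrophages was not tested.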

How the data were processed

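Droplet 3' libraries of 1 tumour and 1 adjacent tissue sample were analysed. The authors deposited raw UMI counts per gene and barcode. Cell Ranger, R 4.0.3 and Seurat 3.2.2 are named in the submitters' processing notes, and the matrix headers give Cell Ranger 4.0.0. The mouse genome build of the matrices was not given in the sources used here. The counts were read as sparse matrices with Python 3.11.15, NumPy 2.4.6, SciPy 1.17.1 and pandas 2.3.3.

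Cells with at least 200 genes and at most 20% mitochondrial UMIs were kept. The deposited matrices held 6553 (adjacent) and 8237 (tumour) barcodes and 77855775 and 92188538 UMIs. No cell annotation was used: cells were gated by marker UMIs per 10000 UMIs, with at least 3 marker UMIs, and cells with markers of another lineage were excluded. No doublet caller was run, and cells with markers of 2 lineages were kept apart. Both the members and the lists were chosen with earlier results of these data known, and the gate limits and the narrow lists were chosen after values were seen. Rebuilt cell types may differ from the authors' own.

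UMIs were summed over the cells of a type. Levels have exact Poisson intervals, shares of cells exact Clopper-Pearson intervals (a share of 0 is given with a limit of 3 cells of the total), ratios of levels exact conditional binomial intervals, and differences of shares Newcombe intervals. Thinning drew 2000 UMIs from each cell without replacement and left out shallower cells. Differences between libraries were read for genes with at least 20 UMIs over both, and types with under 50 cells in a library (cDC1 and regulatory T cells) were not compared. The ratio was checked on simulated counts. All members are described. Of each further list up to 4 genes with the most UMIs in cells with at least 5 mitotic UMIs could be named, and outside the lists the 10 genes that followed the mitotic list best. Counts of these lists in cells with mitotic UMIs used folds with 0.5 UMIs added to each side. GENCODE M21 pairs all 40 identifiers with the same symbols. No gene of the matrices overlaps a member on the same strand, and 8 members (Mcm7, Ccna2, Ube2c, Cdca8, Cdc20, Nusap1, Ccne2 and Pclaf) overlap a gene on the other strand.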

Additional observations from a re-analysis of the deposited data

Results flagged for a closer look

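In both cases below, a gated type had a lower mitotic list in the tumour library although the list was higher there over all cells (1.13-fold). In cDC2 the tumour over adjacent ratio was 0.767 (0.699 to 0.842), and in gamma delta T cells it was 0.83 (0.771 to 0.894). The direction turned with the choice of gate: the log2 difference of cDC2 was -0.38 as gated and 0.038 with stricter gates, and that of gamma delta T cells was -0.27 as gated and 0.063 for gates without exclusion. Neither difference from the other cells was tested, since each tissue has 1 library. In gamma delta T cells 14 and 12 cells held most of the narrow mitotic UMIs (79.0% and 59.7%).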

How the results depend on the processing

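Values are log2 tumour over adjacent for list levels, and percentage points, tumour minus adjacent, for shares of cells with at least 5 UMIs. As reported, the S phase log2 was 0.05 over all cells, 0.05 in C1q macrophages and 0.50 in CD8 T cells, and the mitotic log2 was 0.18, 0.24 and 0.93. In CD8 T cells the mitotic log2 kept its sign in 11 of 11 alternatives (0.49 to 1.18) and the S phase log2 in 10 of 10 (0.21 to 0.55). The mitotic log2 of C1q macrophages kept its sign in 11 of 11 (0.11 to 0.41).

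The values that moved beyond counting error in these 3 groups were as follows. Thinning to 2000 UMIs gave S phase log2 0.23 in C1q macrophages and 0.21 in CD8 T cells, and mitotic log2 0.12 over all cells, 0.41 in C1q macrophages and 0.49 in CD8 T cells. The mean over cells gave S phase log2 0.008 over all cells, 0.26 in C1q macrophages and 0.21 in CD8 T cells, and mitotic log2 0.094 over all cells and 0.66 in CD8 T cells. Leaving out Pcna, Cenpa and Cks2 gave mitotic log2 0.35, 0.36 and 1.18 over all cells, C1q macrophages and CD8 T cells. The late mitotic list gave 0.10 over all cells. Without the single richest cell the mitotic log2 of C1q macrophages was 0.29, and without the 3 richest it was 0.33, and 1.02 in CD8 T cells. Stricter gates gave S phase log2 0.21 and mitotic log2 0.11 in C1q macrophages, and gates without exclusion gave mitotic log2 0.60 in CD8 T cells.

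For shares, the S phase difference in C1q macrophages (12.1 points as reported) was 6.02 at a minimum of 10 UMIs, 0.265 after thinning, 1.1 for gates without exclusion and -0.161 for the narrow list after thinning. The mitotic difference in C1q macrophages (9.78 points) was 1.58 after thinning, 1.02 for the narrow list after thinning and -0.0144 for gates without exclusion. Over all cells (-0.748 points) it was 1.13 after thinning, 1.12 for the narrow list and 0.911 for the narrow list after thinning. Among the other types the sign turned as follows. The S phase log2 of basal cells (0.25) was -0.48 after thinning and -0.15 for gates without exclusion. Their S phase share difference was -16.5 points as deposited and 1.04 points after thinning. The mitotic log2 was -0.10 in monocytes and 0.063 in gamma delta T cells for gates without exclusion, 0.038 in cDC2 with stricter gates, -0.11 in B cells without the 3 richest cells, -0.021 in CD4 T cells after thinning and -0.32 in fibroblasts for the late mitotic list. The causes were not tested. Stricter gates, the narrow lists and leaving out 3 cells were chosen after seeing the data. Cells with at least 500 genes and at most 10% mitochondrial UMIs, totals without mitochondrial and ribosomal UMIs, and leaving out shared barcodes moved no value. No paired analysis was possible because each tissue has 1 library.

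Depth limits the shares: a cell with 2000 UMIs rarely reaches 5 UMIs of a list, and a type with under 100 cells and no such cell allows a share above 3%.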
